A study of Arabidopsis thaliana with 48 samples.

Results

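AT1G69570 encodes CDF5, a transcription factor of the plant-specific Dof zinc-finger family, and was read by 1 probe set among 13350 genes named on the Affymetrix ATH1 array of Arabidopsis thaliana. The gene was chosen by its own measured differences with time of day, line and mutant in these arrays. Those differences are therefore given below as a description with their standard errors, and no test was made of them.

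CYCLING DOF FACTORS such as CDF5 are repressors of photoperiodic flowering genes, and their proteins are removed in the light by the GIGANTEA and FKF1 complex. CDF5 has also been linked to elongation of the hypocotyl, the seedling stem, as a gene that phytochrome-interacting factors (PIFs) activate and that clock pseudo-response regulators repress. CCA1, the gene raised in one of the lines, is a morning factor of the circadian clock.

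RNA came from pooled whole seedlings grown on MSMO medium with 3% sucrose, first for 3 days in short days and then in cycles of 160 min light and 320 min dark. Collection ran over days 4, 5 and 6 after germination at up to 4 minutes of the day counted from dawn: 120 and 1080 min in the light, and 280 and 1240 min in the dark. The 9 groups were the CCA1 overexpressor CCA1OX (light 120, dark 280, light 1080 and dark 1240), the double mutant pif4 pil5 (dark 280 only) and the reference line Col (the same 4 times). The groups held 5 arrays each, except the 3 dark 280 groups, which held 6, and a group's arrays were collected on following days and in 2 time courses. The labels call CCA1OX dark 280, CCA1OX dark 1240 and Col dark 280 seedlings growing, and all light groups, pif4 pil5 dark 280 and Col dark 1240 not growing. The labels used here do not name the promoter behind CCA1OX or the mutant alleles. None of the probe sets given a gene name here was named for CCA1, PIF4 or PIL5. This is a limit of the naming used, since probe sets left without a name may read these genes. Transcript levels of CCA1, PIF4 and PIL5 are therefore not reported for any line. In whole seedlings, fewer cells with a transcript and less of it per cell cannot be told apart.

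Across the 48 arrays the median of all values was 4.57 to 4.80 on the log2 scale, and the lowest correlation between 2 arrays of a group was 0.945. For 3 arrays the light gene HYH, a bZIP factor induced by light, went against the label: it read 5.76 in CCA1OX dark 280 replicate 2 and 4.82 in Col dark 280 replicate 3, but 2.58 in Col light 1080 replicate 3. HYH lay between 1.86 and 4.40 in the other 26 dark arrays and between 3.93 and 6.35 in the other 19 light arrays. AT1G69570 read 5.68 in the CCA1OX dark 280 array, 4.48 in the Col dark 280 array and 4.57 in the Col light 1080 array, and values without these 3 arrays are given with the results.

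In CCA1OX seedlings AT1G69570 had its highest mean late in the day in the dark. CCA1OX light 120 arrays read 5.40, 5.68, 5.06, 4.47 and 5.01. The 6 CCA1OX dark 280 arrays ran from 5.11 to 6.67 with a median of 5.68. CCA1OX light 1080 arrays read 4.84, 4.76, 5.62, 5.14 and 4.16, mostly below the dark arrays that came before them. CCA1OX dark 1240 arrays read 5.82, 5.66, 7.01, 6.25 and 6.40, all above the highest CCA1OX light 1080 array.

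In pif4 pil5 seedlings in the dark at 280 min the gene was low in every array, from 3.52 to 4.11 with a median of 3.95. This line had no array at another time, so the mutant's course over the day was not analysed here.

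In Col seedlings the gene was high early in the day and lowest late in the dark. Col light 120 arrays read 5.82, 5.54, 4.29, 3.87 and 4.66, the widest spread of any group. The 6 Col dark 280 arrays ran from 4.48 to 5.91 with a median of 5.29. Col light 1080 arrays read 4.04, 4.57, 4.57, 3.94 and 4.33, and Col dark 1240 arrays read 3.72, 3.67, 3.81, 3.35 and 3.85. No Col dark 1240 array reached the lowest array of any other Col group.

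**Figure D1:**
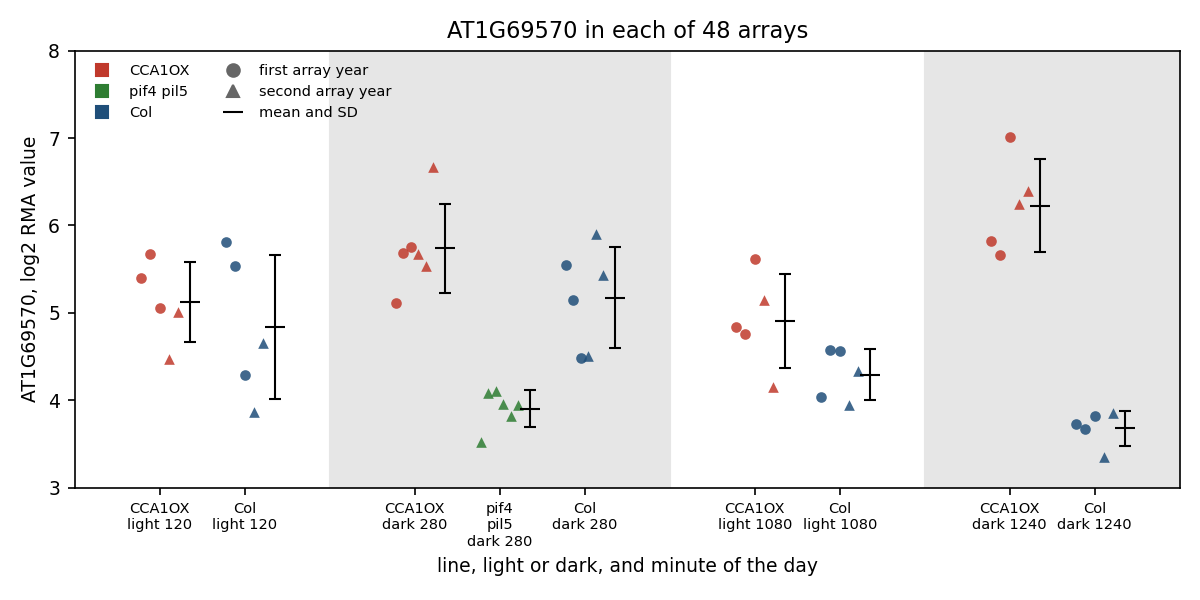
AT1G69570 in each of the 48 arrays as log2 RMA value, by line, light or dark (grey) and minute of the day, with circles for the first and triangles for the second array year and bars for mean and SD. All CCA1OX dark 1240 arrays, from 5.66 upwards, lie above all Col dark 1240 arrays, which end at 3.85, and all pif4 pil5 arrays lie under the lowest Col dark 280 array.

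The group means, from highest to lowest, were 6.23 ± 0.53 in CCA1OX dark 1240 (SD, n = 5), 5.74 ± 0.51 in CCA1OX dark 280 (n = 6), 5.17 ± 0.58 in Col dark 280 (n = 6) and 5.12 ± 0.45 in CCA1OX light 120 (n = 5). They went on with 4.90 ± 0.54 in CCA1OX light 1080, 4.83 ± 0.83 in Col light 120 and 4.29 ± 0.29 in Col light 1080 (n = 5 each), and ended with 3.90 ± 0.21 in pif4 pil5 dark 280 (n = 6) and 3.68 ± 0.20 in Col dark 1240 (n = 5). The ranges of arrays overlapped at each of the 8 steps down this order, and only the last 2 steps were larger than the larger of the 2 SDs. No 2 neighbours in the order were free of overlap, whereas 15 of all 36 pairs of groups were. The percentile of the group mean among all probe sets on the array was 71.8 in CCA1OX dark 1240 and 38.8 in Col dark 1240.

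The spread between group means, 2.55 on the log2 scale, was at the percentile 99.4 of all probe sets, whose median spread was 0.405. The gene was chosen on differences between these groups, so nothing is read from this rank. The residual SD of AT1G69570 within groups, 0.495, was also large, against a median of 0.244 over all probe sets. Without the 3 arrays whose HYH value went against the label, the means were 5.75 in CCA1OX dark 280, 5.31 in Col dark 280 and 4.22 in Col light 1080, and the other 6 groups are unaffected.

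Time of day was followed within each line, from the same day and time course where both arrays existed. In Col, the dark 1240 mean was 1.49 ± 0.29 lower than the dark 280 mean (log2 difference ± SE), a 2.81-fold difference. All 5 matched pairs of Col arrays were lower at 1240 min, by a difference of -2.06 to -0.67, and no array of the groups overlapped. Against light 1080, all 4 matched Col pairs were also lower at dark 1240, by a difference of -0.90 to -0.32, and the group difference was -0.61 ± 0.30.

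CCA1OX went the other way at the end of the day. Its dark 1240 mean was 1.32 ± 0.30 above its light 1080 mean, a 2.50-fold difference, and all 4 matched pairs were higher, by 0.91 to 1.39. Against CCA1OX dark 280, the dark 1240 mean was higher by 0.49 ± 0.29, with 4 of 5 pairs higher and overlapping arrays. The change between dark 280 and dark 1240 was thus 1.98 ± 0.41 larger in CCA1OX than in Col.

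Early in the day the course was less regular. Dark 280 minus light 120 was 0.61 ± 0.29 in CCA1OX, with 4 of 5 pairs higher, and 0.34 ± 0.29 in Col, with 3 of 5 pairs higher. The array year, the year in the names of the array files, held 24 arrays each time and separates the time courses of CCA1OX and Col. In the second array year the step was 1.22 in CCA1OX and 1.02 in Col, and in the first it was 0.14 in CCA1OX and -0.16 in Col. Each of these rests on 2 or 3 arrays a group, and whether the years differ in this step was not tested. Between dark 280 and light 1080 all 5 CCA1OX pairs were lower at 1080 min, and 4 of 5 Col pairs were lower.

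**Figure D2:**
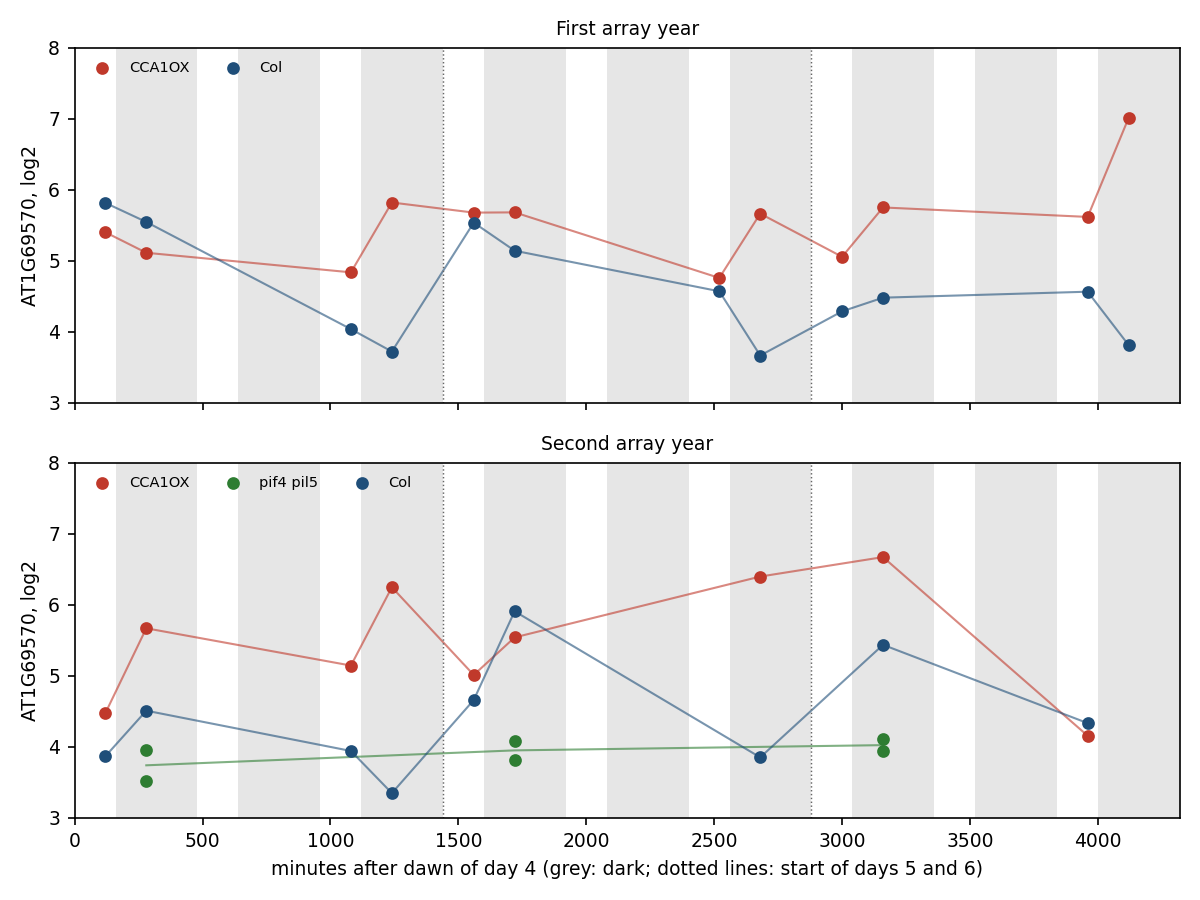
AT1G69570 (log2) against minutes after dawn of day 4, one panel per array year, with dots for arrays, lines through the mean at each time and grey for dark. Col points at 1240 min of each day lie between 3.35 and 3.85 in both years, and CCA1OX points at the same times lie between 5.66 and 7.01.

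The lines were compared at each time of day in 21 pairs of arrays from the same day and time course. CCA1OX was higher than Col in 17 of 21 pairs, and in 14 of 18 pairs without the 3 arrays above. At dark 1240, the pair difference was 2.00 to 3.20 with a median of 2.55, and all 5 pairs were higher in CCA1OX. The group difference there was 2.55 ± 0.30, a 5.84-fold higher value in CCA1OX.

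At light 120 and dark 280 CCA1OX stood above Col by less than the larger SD of the groups compared, and at light 1080 by slightly more. The CCA1OX minus Col difference was 0.29 ± 0.30 at light 120 (4 of 5 pairs higher), 0.57 ± 0.28 at dark 280 (4 of 6 pairs) and 0.61 ± 0.30 at light 1080 (4 of 5 pairs), and the arrays of the groups overlapped at each of these times. Within the array years, the difference at dark 1240 was 2.72 in the second and 2.43 in the first. At dark 280 it was 0.68 in the second and 0.46 in the first.

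**Figure D3:**
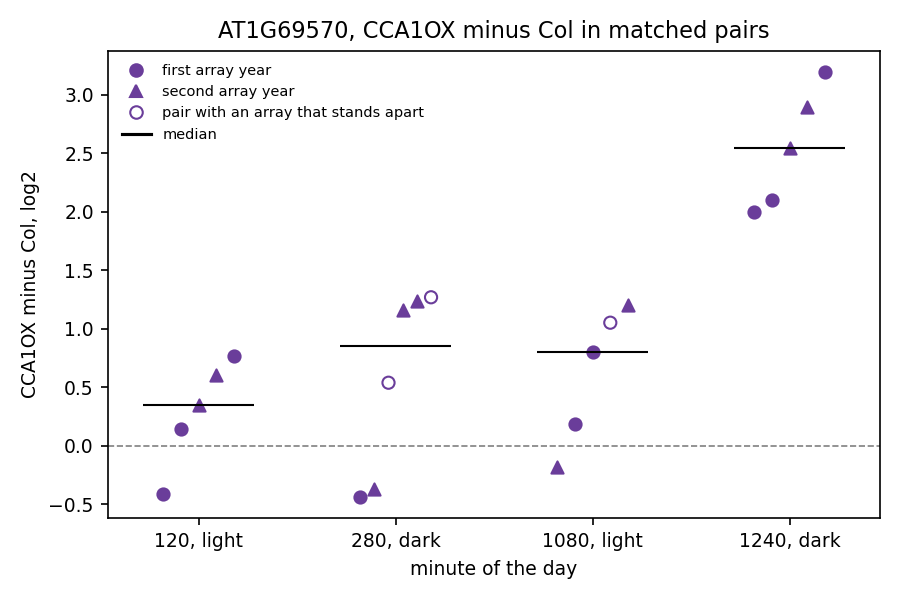
CCA1OX minus Col for AT1G69570 (log2) in 21 pairs of arrays matched for day and time course, by minute of the day, with the median as a line and open symbols for pairs holding 1 of the 3 arrays whose HYH value went against the label. The 5 pairs at dark 1240 lie at 2.00 to 3.20, above all pairs at the other times, which end at 1.27.

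The double mutant pif4 pil5 was compared with Col at dark 280. PIF proteins are known to build up in the dark and to be removed in the light. The mutant mean was 1.27 ± 0.28 lower than the Col mean, 2.41-fold, and no array of the groups overlapped. It was 1.83 ± 0.28 lower than the CCA1OX mean at the same time. It differed from Col dark 1240 by 0.22 ± 0.29, with overlapping arrays. All pif4 pil5 arrays came from the second array year, in which the difference from Col was -1.38, and from array date 5, which held 1 Col dark 280 array and gave -1.53.

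Col dark 280 served as reference for both the time of day and the mutant comparison, and Col dark 1240 for both time of day and line, so these values are not independent of each other. The measure of RNA quality, the excess of 3' over 5' signal in the actin and GAPDH controls, moved with some of the groups. It averaged 1.80 ± 0.05 in CCA1OX dark 1240 and 1.53 ± 0.19 in Col dark 1240, and 1.51 ± 0.15 in pif4 pil5 dark 280 and 1.67 ± 0.05 in Col dark 280 (SD). Its correlation with AT1G69570 was 0.372 over the 48 arrays and 0.0113 after group means were taken out. Its part in the differences between groups was not tested.

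The growth label set the dark arrays apart on this gene. The 17 dark arrays labelled growing ran from 4.48 to 7.01 with a median of 5.67, and the 11 dark arrays labelled not growing ran from 3.35 to 4.11 with a median of 3.82. The gap between them was 0.375. Of 22746 probe sets, 3 had every growing dark array above every other dark array, which is 0.0132% of them, and those with a single gene name were AT1G69570 and WES1. Without the 3 arrays above there were 20 such probe sets. The dark contrasts behind this label are those on which AT1G69570 was chosen, so nothing is read from its place among them. In the light, where all seedlings are labelled not growing, the gene ran from 3.87 to 5.82 in 20 arrays, and 17 of them were above the highest dark array labelled not growing.

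Day after germination and array year had no part in choosing the gene and were tested with limma over all 22746 probe sets. AT1G69570 was 0.25 ± 0.17 higher on day 6 than on day 4 (95% interval -0.09 to 0.59), and limma with Benjamini-Hochberg adjustment gave an adjusted p of 0.319. The test called 20.2% of all probe sets in this comparison. In CCA1OX and Col no array date held both day 4 and day 6 arrays, so day partly goes with array date. The test took arrays as independent, although residuals within a time course and day correlated by 0.298. Its p-values may therefore be too small and its interval too narrow. In 10 of 14 day 6 arrays and 7 of 18 day 4 arrays the gene was above its group mean. In the second array year the gene was lower by 0.17 ± 0.15 than in the first (95% interval of the difference -0.47 to 0.14), with an adjusted p of 0.404 from limma, where 36.1% of probe sets were called. In CCA1OX and Col the array year goes with the time course, so year and course cannot be told apart. The year interval therefore does not cover the spread between time courses. As computed, the intervals leave room for a day effect of up to 0.59 and for a drop of up to 0.47 in the second year.

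Other Dof genes on the array varied less between groups than AT1G69570, which was chosen for its differences between groups. Of 35 Dof genes listed, 11 others had a named probe set. Their spread between group means was 0.29 to 0.70 on the log2 scale, beside a median of 0.405 over all probe sets and 2.55 for AT1G69570. Because of that choice, the contrast is no result about the family. The correlation of the 11 genes with AT1G69570 over 48 arrays was -0.30 to 0.27. None of the 11 passed the test in any of 5 comparisons between groups. These called 0.101% of probe sets for Col dark 1240 minus dark 280 (23 probe sets), 0% for the same in CCA1OX, 0.62% for CCA1OX minus Col at dark 1240 (141), 0.123% at dark 280 (28) and 0.607% for pif4 pil5 minus Col (138). With shares this low, 0 of 11 is also near the background. In CCA1OX dark 1240 minus dark 280 limma called 0 probe sets, against 303 at an unadjusted p under 0.05.

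The median difference of the 11 Dof genes was 0.09, beside -0.01 over all probe sets, for Col dark 1240 minus dark 280, and 0.14, beside 0.03, for pif4 pil5 minus Col. Loci AT2G34140 and AT1G26790 had group means of 3.51 to 4.01 and of 1.69 to 2.12. AT1G29160 had group means of 4.62 to 5.00. Between days, 4 of the 11 rose on day 6 against day 4: AT2G28810 by 0.60, AT4G24060 by 0.30, AT1G29160 by 0.29 and AT1G64620 by 0.24 (limma, adjusted p 2.55e-07, 0.0109, 0.0212 and 0.0214), where 20.2% of all probe sets were called. The limits given above for the day test hold here too. Between array years, 2 were higher and 2 lower in the second, where 36.1% of all probe sets were called, so the count is near the background.

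**Figure D4:**
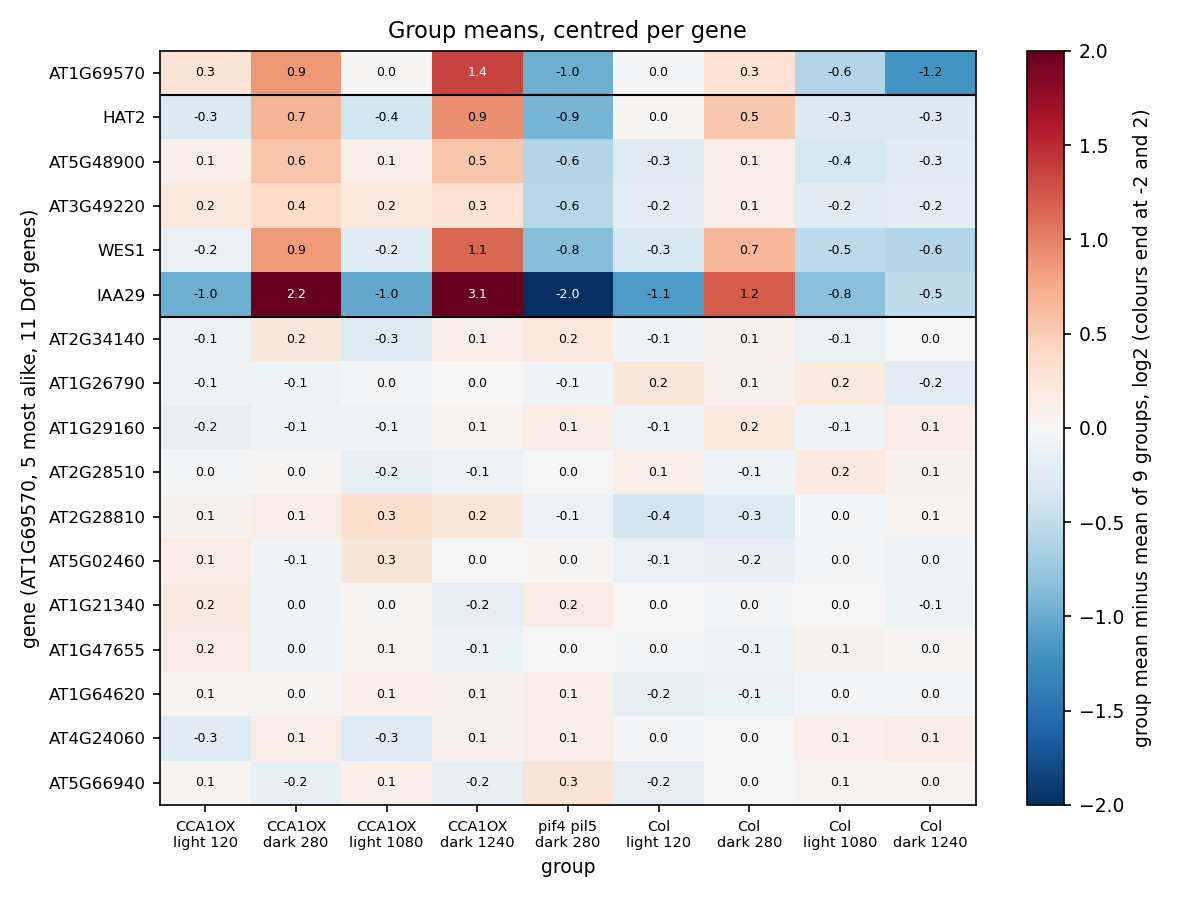
Group mean minus the mean of the 9 groups (log2) for AT1G69570, the 5 named genes most like it over 48 arrays and 11 other Dof genes, with red for higher and blue for lower. AT1G69570 and the 5 genes share high values in CCA1OX dark 280 and dark 1240 and low values in pif4 pil5, and the Dof genes stay near 0, within a spread between group means of 0.70.

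Genes that respond to shade, auxin and PIF factors, and enzymes that loosen the cell wall, were listed with earlier results of these data known, so their direction is not independent evidence. Of 20 listed, 9 had a named probe set. In CCA1OX at dark 1240, 5 of 9 rose against Col: IAA29, an Aux/IAA regulator of auxin signalling, by 3.61, WES1, an auxin-conjugating GH3 enzyme, by 1.74, HAT2, a homeodomain-leucine zipper factor induced by auxin, by 1.21, and the expansin-like genes EXLA2 by 0.80 and EXLA3 by 0.57 (limma adjusted p 0.0072, 1.71e-05, 0.0269, 0.0405 and 0.0263). The test called 0.62% of all probe sets in this comparison. The list's median was 0.99, beside -0.01 over all probe sets. Leaving out 1 array at a time ended the call of HAT2 for 7 arrays (Col 1, 2 and 4, CCA1OX 1, 3, 4 and 5, by replicate number), of EXLA2 for 8 (Col 1, 2, 3 and 5, CCA1OX 1, 2, 4 and 5), of EXLA3 for 4 (Col 1 and 5, CCA1OX 1 and 3) and of IAA29 and WES1 for none. HAT2, EXLA2 and EXLA3 passed in neither array year alone, IAA29 did not pass in the first (limma adjusted p 0.924), EXLA2 (0.0534) and EXLA3 (0.058) did not pass after centring each array on its median, and EXLA3 did not in a fit of only the groups compared (0.0675).

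In pif4 pil5 against Col at dark 280, 5 of 9 fell: IAA29 by 3.26, GH3.3, another auxin-conjugating enzyme, by 1.63, WES1 by 1.52, HAT2 by 1.48 and EXLA2 by 0.75 (limma adjusted p 0.0149, 0.0298, 0.000157, 0.00285 and 0.0398), with a list median of -0.96 beside 0.03 over all probe sets. The main fit called 138 probe sets in this comparison, 0.607% of all, and with the replicate number in the sample titles as a block 357 were called. All pif4 pil5 arrays, of either number, are of the second array year, so this block may not be a time course shared with Col. The call of IAA29 was lost without Col dark 280 replicate 1 or 2, that of GH3.3 without any 1 of 6 arrays (pif4 pil5 3, 5 and 6, Col 1, 2 and 5) and that of EXLA2 without any 1 of 7 (pif4 pil5 1, 2, 3 and 5, Col 1, 2 and 5). In a fit of only the groups compared, the limma adjusted p was 0.11 for IAA29 and 0.0854 for EXLA2, and EXLA2 also did not pass with array date as a block (0.0628) or in the second year alone (0.0552).

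In Col dark 1240 against dark 280, 2 of 9 fell, GH3.3 by 2.12 and WES1 by 1.26 (limma adjusted p 0.00804 and 0.00666), with a list median of -0.55 beside -0.01. The test called 0.101% of all probe sets in this comparison. The call of GH3.3 was lost without Col dark 1240 replicate 1, at an adjusted p of 0.0638, and both calls were lost in a limma fit of only these groups, at an adjusted p of 0.29, and in each array year alone (for GH3.3 1.00 in the second and 0.282 in the first, for WES1 0.263 in the second and 0.282 in the first). None of the 9 passed the test in CCA1OX minus Col at dark 280 or in CCA1OX dark 1240 minus dark 280, where 0.123% and 0% of all probe sets were called. For WES1 in CCA1OX minus Col at dark 1240, limma gave an adjusted p of 0.000573 in the second array year alone and 0.107 in the first.

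Dark and light values are set side by side here with no test between genes. Dark 1240 minus light 1080 in CCA1OX was 1.32 for AT1G69570, 1.39 for WES1, 1.33 for HAT2 and 4.13 for IAA29. In Col the same step was -0.61 for AT1G69570, -0.07 for WES1, 0.0017 for HAT2 and 0.34 for IAA29. The 4 light groups had IAA29 means of 4.08 to 4.37. AT1G69570 means there ran from 4.29 in Col light 1080 to 5.12 in CCA1OX light 120.

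GIGANTEA (GI), the partner of FKF1 in removing CDF proteins, was 1 of 2 photoperiod genes of 21 listed that had a named probe set, with FD, a bZIP factor of flowering. GI was 2.85 ± 0.65 higher in CCA1OX than in Col at dark 1240 (limma adjusted p 0.0164), with 5.99 to 6.76 in CCA1OX arrays and 3.14 to 4.00 in Col arrays. FD differed by -0.01. The test called 0.62% of all probe sets in this comparison. GI and its list were chosen with earlier results of these data known, so the call of GI is not independent evidence. Leaving out Col dark 1240 replicate 4, Col dark 1240 replicate 5 or the CCA1OX replicates 3 and 5 of that time, each alone, ended the call of GI, as did the second array year alone (limma adjusted p 0.308) and the first (0.253). GI in pif4 pil5 differed from Col at dark 280 by -0.50 ± 0.60, which did not pass the test, and arrays of both groups overlapped. Its correlation with AT1G69570 over 48 arrays was 0.309.

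Of 14 listed phytochrome-interacting factors and phytochrome A transport genes, FHL, a nuclear import factor for phytochrome A, and the bHLH factor SPT had a named probe set. FHL was 1.06 ± 0.26 higher in CCA1OX than in Col at dark 1240 (limma adjusted p 0.0295), a call lost without any 1 of 8 arrays (Col 1 to 4, CCA1OX 1, 2, 4 and 5) and in the first array year alone (limma adjusted p 1.00). SPT differed by 0.49 ± 0.43 and did not pass, where 0.62% of all probe sets were called. This list was also chosen with earlier results of these data known, so the call of FHL is not independent evidence. Of 20 clock genes, only AT5G52660 had a named probe set. It did not pass in any of the 5 comparisons between groups, which called at most 0.62% of all probe sets.

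Likeness to AT1G69570 was measured by Pearson's r over the 48 arrays, which share the groups, the growth days and the array years. Among probe sets of a single named gene, the 5 with the highest r were HAT2 (0.796), AT5G48900 (0.781), AT3G49220 (0.778), WES1 (0.778) and IAA29 (0.758). Of all probe sets 72 had r over 0.7, up to 0.886. After group means were taken out, r was 0.690 for HAT2, 0.607 for IAA29, 0.549 for AT3G49220, 0.482 for AT5G48900 and 0.312 for WES1.

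These genes were picked for their likeness, and their group orders differed from that of AT1G69570 in places: AT5G48900 and AT3G49220 were highest in CCA1OX dark 280, and HAT2 averaged 6.88 in CCA1OX light 120 and 7.19 in Col light 120. HAT2 averaged 8.10 ± 0.12 in CCA1OX dark 1240 and 6.88 ± 0.38 in Col dark 1240, and 6.23 ± 0.17 in pif4 pil5 and 7.71 ± 0.63 in Col dark 280. WES1 averaged 9.08 ± 0.17 in CCA1OX dark 1240 and 7.34 ± 0.28 in Col dark 1240, and 7.08 ± 0.25 in pif4 pil5 and 8.60 ± 0.43 in Col dark 280. All 5 were lowest in pif4 pil5, whereas AT1G69570 was lowest in Col dark 1240.

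The lowest r was that of AT5G24460, -0.691, followed by AT1G16520 (-0.608), SDRB (-0.608), AT2G35075 (-0.604) and AT5G15390 (-0.603). No probe set had r under -0.7. AT5G24460 averaged 7.13 ± 0.14 in pif4 pil5 and 6.39 ± 0.18 in Col dark 280, and 5.73 ± 0.24 in CCA1OX dark 1240 and 6.47 ± 0.32 in Col dark 1240. With Spearman's rho over 48 arrays 4 of the 5 highest genes were the same, as they were without the 3 arrays above, but none with r over the 9 group means, led by AT5G57480 (0.966) and EXLA2 (0.941), or over residuals from group means.

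In the TAIR10.1 annotation the locus of a long noncoding RNA, AT1G69572, overlaps AT1G69570. It had no named probe set here, and whether the probe set of AT1G69570 also reads it was not tested. The nearest named genes on the array were AT1G69526, AGL94 and AT1G69550 before AT1G69570 and AT1G69580, AT1G69610 and AT1G69630 after it. None of the 6 passed the test in any of the 5 comparisons between groups, and their spread between group means was 0.23 to 0.61. Those comparisons called at most 0.62% of all probe sets, so no call among 6 is near the background. Between days, AT1G69526 fell by 0.56 and AT1G69580 rose by 0.46 on day 6 against day 4 (limma adjusted p 0.00346 and 0.00136). In the second array year AT1G69630 fell by 0.11 against the first (limma adjusted p 0.00298). The 2 of 6 called by day and the 1 of 6 called by year stand beside 20.2% and 36.1% of all probe sets, and are no result about these neighbours.

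Markers of organs were read to see whether the seedling samples differed in makeup. Of 12 shoot markers only RCA, Rubisco activase, had a named probe set, with group means of 12.3 to 12.6. Of 12 root markers 4 had a named probe set. Among them PYK10, a root beta-glucosidase, averaged 11.57 ± 0.15 in pif4 pil5 and 11.95 ± 0.11 in Col dark 280. The spread between group means was 0.55 for PYK10, 0.50 for AT4G13580, 1.06 for EXPA7 and 1.22 for GH9C1. CCA1OX minus Col at dark 280 was -0.88 for GH9C1 and -0.76 for EXPA7, but 0.33 for AT4G13580 and 0.07 for PYK10. In pif4 pil5 minus Col, GH9C1 differed by -0.85, EXPA7 by -0.44, PYK10 by -0.38 and AT4G13580 by -0.09. None of the 5 passed the test in any of the 5 comparisons between groups, and none of 12 vascular markers had a named probe set. Those comparisons called at most 0.62% of all probe sets, so no call among 5 is near the background. In pif4 pil5 against CCA1OX at dark 280, where 8.68% of probe sets were called, PYK10 was the 1 of these 5 that passed: it averaged 11.57 ± 0.15 in pif4 pil5 and 12.02 ± 0.20 in CCA1OX (SD, n = 6 each, limma adjusted p 0.0126). This call was not checked under the alternatives. In the same comparison EXPA7 differed by 0.31, GH9C1 by 0.03 and AT4G13580 by -0.42. All 6 pif4 pil5 arrays are of the second array year, in which PYK10 was lower by 0.30 than in the first (limma adjusted p 1.16e-06), while CCA1OX dark 280 has 3 arrays of each year. The part of array year in this PYK10 difference was not tested, nor was that of tissue makeup in the AT1G69570 values.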

How the data were processed

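Affymetrix ATH1 arrays measured RNA of pooled whole seedlings in 48 samples. The deposited table holds log2 values that the authors made by RMA with affy, per the submitters' processing notes; version and annotation are not given in the sources used here. RMA corrects background, equalises array distributions by quantiles and sums up the probes of a set, so a change shared by most genes would not show. Values ran from 1.241 to 13.132. Precision is set by how many arrays a group has, since arrays hold no counts.

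The 64 control probe sets among 22810 were not tested. A table of probe names gave 13513 probe sets 1 gene, 13508 of them matched to a locus, and 503 several genes. Groups came from the labels. Limma 3.58.1 in R 4.3.3 fitted 9 group means over all 48 arrays (39 residual degrees of freedom), and day or array year was added as a term for those tests. Tests were two-sided with Benjamini-Hochberg adjustment over 22746 probe sets at a threshold of 0.05, and were tested on simulated data. Figures and correlations used Python 3.11.15.

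No 2 arrays held identical values. The p-values measure the spread between pooled samples from following days and 2 time courses. The title numbers of CCA1OX and Col arrays go with the 2 array years and were taken to name the time courses that the series' design text mentions. Residuals of their arrays correlated by 0.298 within a number and day, 0.0798 within a number on other days and -0.159 between numbers, so arrays pair mostly within a day.

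Named were AT1G69570, all Dof genes, called members of the other lists (up to 3 per list and contrast, and further ones named after their values were seen), the 5 genes most and least alike, and the nearest genes. The gene and the lists were chosen with earlier results of these data known. Alternatives were blocks for title number, array year, array date and day, each year alone, 45 arrays, centring, repeated quantiles, a dim filter, another variance prior, array weights, only the groups compared and single arrays left out.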

Additional observations from a re-analysis of the deposited data

Results flagged for a closer look

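Groups of AT1G69570 and 14 other genes were checked for an array far from the rest of its group, 135 groups in all, of which chance marks about 1 in 20. No group of AT1G69570 was marked, and 7 groups of other genes were. Of these, 4 concern arrays whose HYH value went against their label. WES1 read 7.98 in CCA1OX dark 280 replicate 2, against 8.73 to 9.06 in the others of the group. In Col light 1080 replicate 3, WES1 read 8.58, against 6.98 to 7.32 in the others, and IAA29 read 7.38, against 2.96 to 4.17. AT5G48900 read 7.90 in Col dark 280 replicate 3, against 8.90 to 9.31.

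The other 3 were HAT2 in CCA1OX light 1080 replicate 3, 7.20 against 6.60 to 6.72, SDRB in CCA1OX light 1080 replicate 5, 6.97 against 7.47 to 7.57, and AT5G48900 in Col dark 1240 replicate 5, 8.73 against 8.44 to 8.48. AT1G69570 itself read 5.62 and 4.16 in these CCA1OX light 1080 arrays and 3.85 in the Col dark 1240 array. The SDRB array also had the highest 3' over 5' excess of all arrays, 2.47.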

How the results depend on the processing

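The differences of AT1G69570 between groups kept their sign in every alternative run, except Col dark 280 minus light 120, which was 1.02 in the second array year alone and -0.16 in the first. The same step in CCA1OX was 1.22 in the second year alone. With the runs that left out single arrays included, CCA1OX minus Col at dark 1240 ran from 2.35 to 2.72. The range was -1.49 to -1.12 for pif4 pil5 minus Col and -1.71 to -1.32 for Col dark 1240 minus dark 280. The day difference ran from 0.04 to 0.44 and the year difference from -0.26 to -0.05, and 0 of 61 and 0 of 57 alternatives passed the threshold.

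Counts of called probe sets moved more, and the cause was not tested. For pif4 pil5 minus Col, 138 probe sets were called. The title number as a replicate block gave 357, day as block 259, the second year alone 43, array weights 553 and only the groups compared 21. For CCA1OX minus Col at dark 280, with 28, the counts were 48 with array year as block, 83 with array date, 57 with day, 43 without the 3 arrays, 45 in the second and 5 in the first year, 15 after centring, 82 with weights and 4 for only the groups compared. At dark 1240, with 141, they were 261 with array date, 16 in the first year, 615 with weights and 281 for only the groups compared. For Col dark 1240 minus dark 280, with 23, they were 50 with day, 54 without the 3 arrays, 3 in the second and 9 in the first year, 53 with weights and 0 for only the groups compared.

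Leaving out single arrays gave 43 to 633 for pif4 pil5 minus Col (lowest without Col dark 280 replicate 1, highest without replicate 4), 14 to 37 for CCA1OX minus Col at dark 280 (lowest without Col dark 280 replicate 5) and 11 to 31 for Col dark 1240 minus dark 280 (lowest without Col dark 1240 replicate 4). The replicate block moved no other count by over 1.5 times.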
